A study of Drosophila melanogaster with 13 samples.

Results

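DNA damage sites of wild-type salivary glands were set against the peak summits of a stage 10 egg chamber library of the same strain. The damage sites were the gamma-H2Av peaks of OrR glands, and 804 of 5175 deposited peaks were kept. A peak was left out when it lay on unplaced (U, Uextra) or mitochondrial sequence, which held 3942 peaks, or overlapped a gland IgG peak, which removed 429 of the 1233 placed peaks (34.8%). From the stage 10 list, 10427 of 24764 deposited peaks were kept by the same rule, with 14201 on unplaced or mitochondrial sequence and 136 at a stage 10 IgG peak. The whole series holds 83082 peaks in 9 lists.

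The identity of the stage 10 library is in conflict. Its sample label and antibody entry say Cdc45, while the run name in the header of its peak list says SUUR, and the other stage 10 library carries the opposite pair of names. It is called here the library labelled Cdc45, and no value below tells which of the 2 proteins was precipitated.

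The gland libraries came from salivary glands hand dissected from wandering larvae of the third instar of OrR, a wild-type strain, precipitated with a Rockland antibody against gamma-H2Av or with Abcam rabbit IgG. A gamma-H2Av library of glands of a SuUR mutant served as a further comparator, and its allele is not given in the sources used here. The egg chambers were dissected from ovaries of OrR females fattened on wet yeast, fixed in 2% formaldehyde and used at 600 egg chambers per precipitation, with antibodies made in-house. They are whole egg chambers, so germline cells and follicle cells are mixed, and nothing in the peak lists separates them. Each group is 1 library of 1 replicate, so no difference below has a replicate check and no test between the tissues could be run.

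Gamma-H2Av is the histone variant H2Av phosphorylated around DNA breaks, the fly counterpart of mammalian gamma-H2AX. In polytene salivary gland nuclei, SUUR (Suppressor of Underreplication) binds late replicating chromatin and hinders replication forks, and some late replicating regions stay underreplicated. Cdc45 is a component of the helicase that unwinds DNA at the fork. In stage 10 egg chambers the follicle cells amplify chorion gene clusters from local origins, and forks then move outward from them.

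The gland gamma-H2Av library had 19208769 tags after filtering and the gland IgG library 16337826, per the file headers. Of the stage 10 libraries, the one labelled Cdc45 had 8265341 tags, the one labelled SUUR 353742, and IgG 3891175. Both OrR gland lists were called against 1 shared input, all 3 stage 10 lists against another, and the tissues shared none. Peaks differed in shape as well. Kept gamma-H2Av peaks had a median length of 1783 bp and kept stage 10 peaks one of 68 bp, so each stage 10 peak is reduced to its summit. The fragment length used to call the library labelled Cdc45 was 36 bp, shorter than its 44-bp tags. Its kept peaks on the arms had a median pileup of 12. What share of these short peaks marks binding was not tested. Shares have Wilson 95% intervals, densities exact Poisson 95% intervals and ratios of densities exact conditional 95% intervals. They cover counting error only, and summits that cluster are not independent, so the true uncertainty is larger.

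Of the 804 gamma-H2Av peaks, 501 lay on the 5 long chromosome arms, 6 on chromosome 4 and 297 on the Het scaffolds, which hold placed heterochromatic sequence. Arm 2L had 218, 3L 122, X 94, 3R 46 and 2R 21. Within the arms, 136 peaks lay in the last 2 Mb next to the centromere of each arm, called centromere ends here, and 365 lay elsewhere. The stage 10 list had 6828 summits on the arms, 3075 of them in the centromere ends, 276 on chromosome 4 and 3323 on the Het scaffolds. Both lists were thus dense near centromeres. In the first 2 Mb the gamma-H2Av list had 13.6 peaks per Mb (11.4 to 16.1) and the stage 10 list 308 summits per Mb (297 to 319). Between 2 and 4 Mb there were 14 gamma-H2Av peaks (0.77 to 2.35 per Mb), between 4 and 6 Mb there were 83 (8.30 per Mb), and between 6 and 8 Mb 99, a density of 9.90 per Mb (8.05 to 12.1). The stage 10 densities in the same bins were 52.3 summits per Mb (47.9 to 57.0), 24.7 (21.7 to 28.0) and 46.3 (42.2 to 50.7). Gland IgG peaks were also dense in the first 2 Mb, at 22.7 per Mb against 3.30 between 2 and 4 Mb. These values pool the arms, and the gamma-H2Av peaks between 4 and 8 Mb came largely from 2L. Runs of 40, 47 and 38 kept peaks on 2L were centred 5.26, 5.88 and 6.94 Mb from its centromere end.

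**Figure D1:**
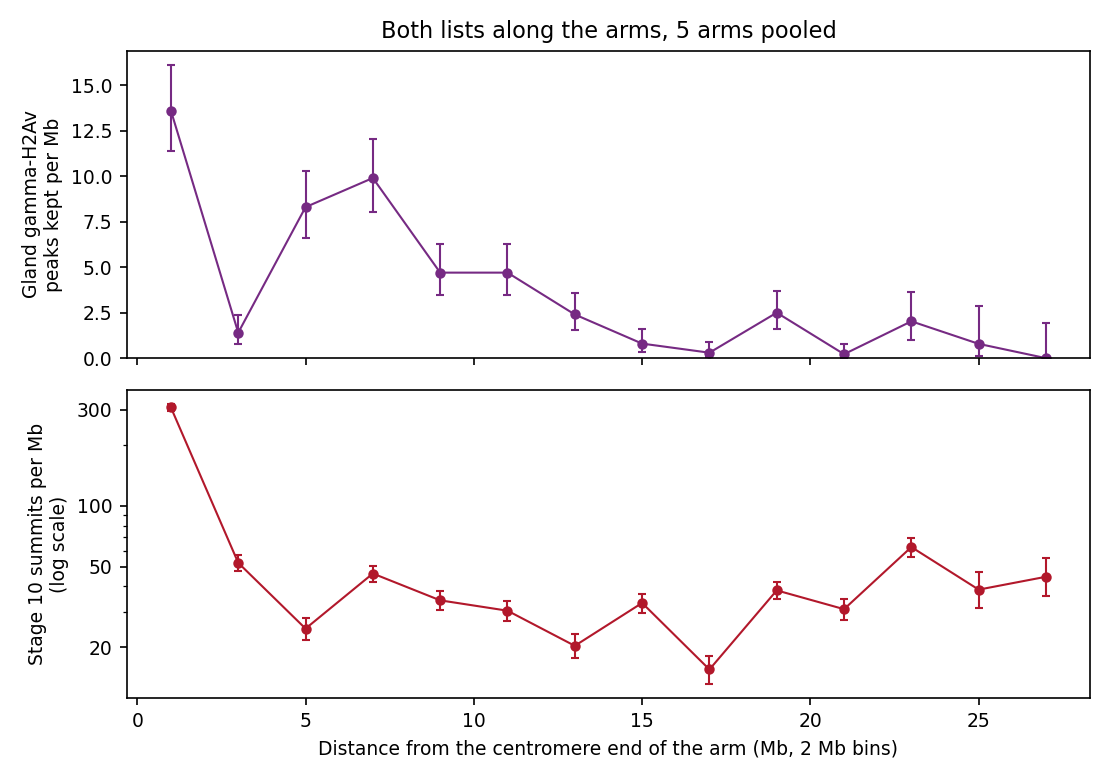
Density along the 5 major arms in bins of 2 Mb from the centromere end, with gland gamma-H2Av peaks kept per Mb above and stage 10 summits per Mb (library labelled Cdc45, log scale) below; points are pooled over arms and bars are Poisson 95% intervals. Both lists peak in the first bin, at 13.6 peaks and 308 summits per Mb, and gamma-H2Av has a second rise at 4 to 8 Mb, where the stage 10 density is 24.7 and then 46.3. That second rise comes largely from runs of peaks on 2L.

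Few damage sites held a stage 10 summit. On the arms 63 of 501 gamma-H2Av peaks did (12.6%, 9.95 to 15.8), against 4.88% of tiles of the median arm peak length, 2486 bp, laid along the same sequence. In the centromere ends it was 46 of 136 peaks (33.8%, 26.4 to 42.1) against 25.1% of tiles there, or 22.3% of tiles of the median length of those peaks. Away from them it was 17 of 365 peaks (4.66%, 2.93 to 7.33) against 3.02% of tiles, so the background share lies within the interval. On chromosome 4, 5 of 6 peaks held a summit against 16.9% of tiles. Those 6 peaks had a median length of 4774 bp, longer than the tiles, and tiles of that length were not laid. On the Het scaffolds 80 of 297 peaks held a summit (26.9%, 22.2 to 32.3) against 31.7% of tiles. Peaks on the Het scaffolds were shorter, and of tiles of their own median length, 1157 bp, 21.6% held a summit, so the side on which the peaks stand depends on the tile. Most of the overlap on the arms therefore came from the centromere ends. Tiles are of 1 length, whereas the gamma-H2Av peaks on the arms ran between 393 and 26082 bp, and a longer peak has more room for a summit.

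The other stage 10 lists gave the background for the same 501 peaks. The library labelled SUUR had a summit in 36 of them (7.19%, 5.24 to 9.79) against 6.43% of tiles, and stage 10 IgG in 2 (0.40%, 0.11 to 1.44) against 0.332%. At stages 12-13 the library labelled Cdc45 had a summit in 55 (11.0%, 8.53 to 14.0) against 3.59% of tiles, and the one labelled SUUR in 9 (1.80%, 0.95 to 3.38) against 2.44%. These lists differ in depth and length, so their shares are given side by side and not ranked. For the library labelled SUUR the share away from the centromere ends was 5.48% (3.57 to 8.31) against 6.07% of tiles. By density inside gamma-H2Av peaks against the rest there, it stood below 1, at 0.59 (0.37 to 0.90), while the library labelled Cdc45 stood above 1, at 1.86 (1.45 to 2.34).

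Read from the egg chamber side, 255 of 6828 arm summits lay in a gamma-H2Av peak (3.73%, 3.31 to 4.21), on 1.45% of the arm sequence. Within 10 kb of a peak, the share was 15.8% of summits on 4.75% of the sequence, and within 100 kb it was 43.8% on 15.2%. Without the centromere ends the shares were smaller, with 1.97% of summits inside a peak on 1.20% of the sequence, 7.43% within 10 kb on 3.64% and 22.2% within 100 kb on 12.2%. Beyond 100 kb lay 77.8% of the stage 10 summits there, on 87.8% of the sequence. For stage 10 IgG, 12.9% of 249 arm summits (9.25 to 17.6) lay within 10 kb. Without the centromere ends it was 9.05% of 210 IgG summits (5.87 to 13.7), and 32.4% (26.4 to 39.0) within 100 kb. There the IgG shares were thus not below those of the library labelled Cdc45. Many of these IgG summits lay in single windows, given below.

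Local density showed where the neighbourhood of damage sites was rich in summits. On the whole arms the density was 148 summits per Mb inside gamma-H2Av peaks (130 to 167), 210 within 10 kb of them, 230 at 10 to 25 kb, 179 at 25 to 50 kb, 100 at 50 to 100 kb and 38.1 beyond 100 kb, called the rest. The ratio to the rest was 3.88 inside (3.40 to 4.40) and 5.51 within 10 kb (5.11 to 5.94). Density thus stayed high well beyond 10 kb. The inside to 10-kb flank ratio was 0.70 (0.61 to 0.81), but kept peaks hold no gland IgG peak by the rule that chose them, while the flanks do. With gland IgG peak sequence left out everywhere the ratio was 0.94 (0.81 to 1.09), and with no peak left out for IgG it was 1.16 (1.05 to 1.29), so the order of inside and flank depends on that rule.

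The contrast was smaller on the rest of the arms. Away from the centromere ends the density was 56.7 summits per Mb inside (44.5 to 71.2), 76.9 within 10 kb (66.7 to 88.1), 95.1 at 10 to 25 kb (82.2 to 109) and 30.5 in the rest (29.4 to 31.6). The ratio to the rest was 1.86 inside (1.45 to 2.34) and 2.52 within 10 kb (2.18 to 2.90). In the centromere ends it was 428 inside (368 to 495), 492 within 10 kb, 552 at 10 to 25 kb and 178 in the rest, a ratio of 2.40 inside (2.03 to 2.82). That ratio rests largely on 3L, which held 122 of the 181 summits inside peaks there, and without 3L it was 1.30 (0.98 to 1.70). With gland IgG peak sequence and the centromere ends left out, the densities were 56.7 inside, 44.4 within 10 kb, 58.0 at 10 to 25 kb and 28.8 in the rest. The flank ratio was then 1.54 (1.26 to 1.87) and the inside ratio 1.97 (1.54 to 2.48). Stage 10 IgG, with few summits, also stood higher beside the peaks than inside them: 0.77 per Mb inside from 1 summit, 6.75 within 10 kb (4.0 to 10.7), 15.7 at 10 to 25 kb (10.7 to 22.1) and 1.48 in the rest, away from the centromere ends. The library labelled SUUR was not above its rest in either zone, with 16.1 per Mb inside (9.96 to 24.6), 20.6 within 10 kb (15.5 to 26.8) and 27.2 in the rest (26.2 to 28.3). The IgG values rest on single places. A single 100-kb window, starting at X 2.9 Mb, held 11 of the 18 IgG summits within 10 kb, and 1 starting at X 13.9 Mb held 26 of the 32 at 10 to 25 kb. Without those windows IgG had 2.67 per Mb (1.07 to 5.50) and 2.98 (1.09 to 6.49). The summits of the library labelled Cdc45 were spread over 32 of 99 windows within 10 kb and 25 of 105 at 10 to 25 kb. Without the richest window of each zone their densities were 72.2 per Mb (62.2 to 83.3) and 85.3 (73.1 to 99.0), both above the rest. The windows were looked up after the values were seen.

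**Figure D2:**
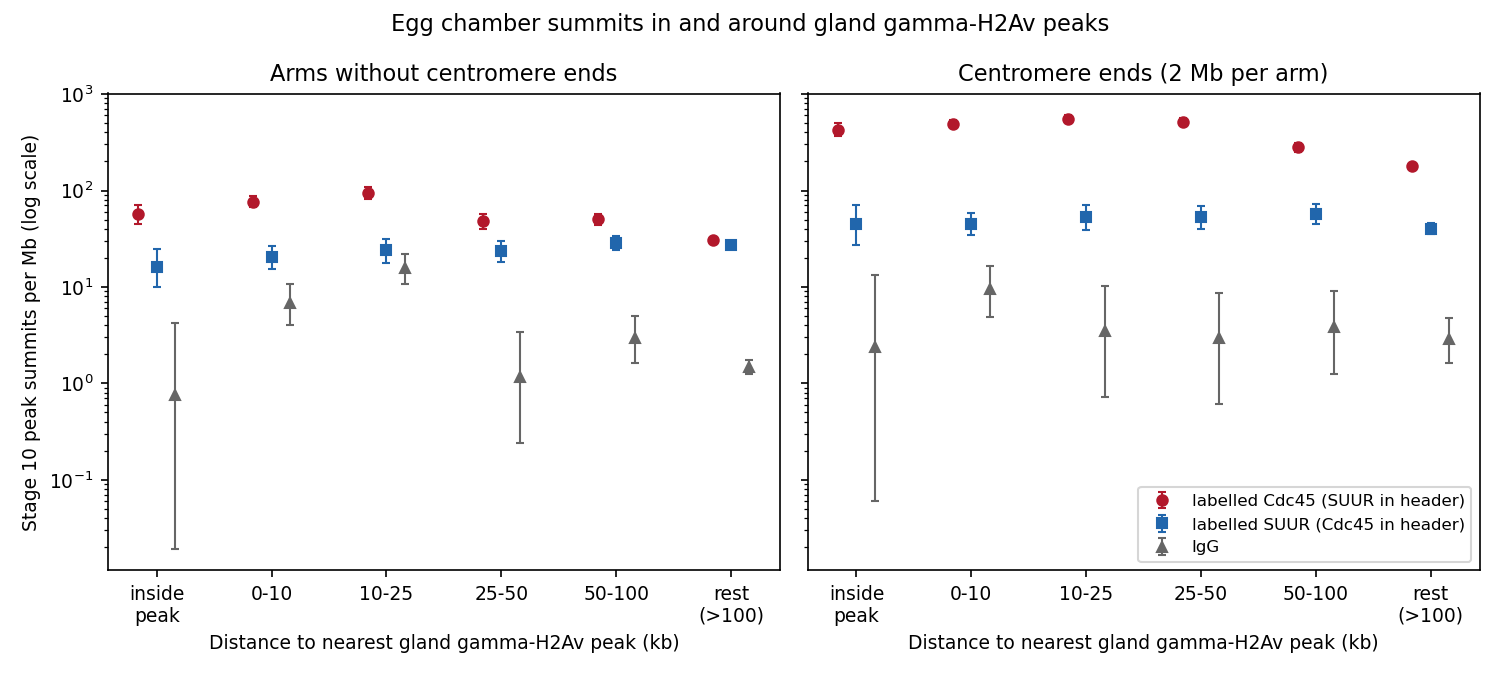
Summits per Mb (log scale) of the 3 stage 10 libraries by distance from the nearest kept gland gamma-H2Av peak, away from the centromere ends (left) and within them (right); bars are exact Poisson 95% intervals. The library labelled Cdc45 is at 56.7 inside, 95.1 at 10 to 25 kb and 30.5 in the rest on the left, IgG also rises at 10 to 25 kb there, from 1 window for 26 of its 32 summits, and the library labelled SUUR is flat or lower near the peaks.

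The pooled density mixed arms with different values. Away from the centromere ends, the density inside gamma-H2Av peaks and in the rest of the same arm was 18.8 summits per Mb (8.62 to 35.8) and 30.0 on 2L, 27.7 (11.1 to 57.0) and 30.8 on 3L, and 40.3 (18.4 to 76.5) and 24.5 on 3R. On X it was 115 (80.6 to 159) and 43.1. On 2R it was 334 (178 to 572) and 26.2, from 13 summits in 38.9 kb of peaks. The intervals of 2L, 3L and 3R included the rest of their arm, and those of 2R and X did not. Without X the pooled inside ratio was 1.39 (0.98 to 1.91), and its interval includes 1.

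The same summits were denser at gland IgG peaks than at the kept damage sites, except on chromosome 4. Away from the centromere ends the density was 56.7 summits per Mb inside kept gamma-H2Av peaks and 334 inside gland IgG peaks (302 to 367), a ratio of 0.17 (0.13 to 0.22). The gamma-H2Av peaks left out because they overlap an IgG peak had 163 (128 to 206), and gamma-H2Av peaks of SuUR mutant glands had 102 (69.6 to 145). By share, 4.66% of kept gamma-H2Av peaks held a stage 10 summit there, against 21.2% of the 85 left-out ones (13.8 to 31.0) and 24.3% of the 292 gland IgG peaks (19.7 to 29.5). In the centromere ends the densities were 428 in kept gamma-H2Av peaks and 769 in gland IgG peaks, a ratio of 0.56 (0.47 to 0.66). On the Het scaffolds they were 447 and 754, a ratio of 0.59 (0.51 to 0.68). On chromosome 4 they were 559 and 555, a ratio of 1.01 (0.50 to 1.93). Set against the SuUR mutant's gamma-H2Av peaks, kept OrR peaks had a density ratio of 0.55 away from the centromere ends (0.36 to 0.87), 1.13 in them (0.91 to 1.41), 1.45 on the Het scaffolds (1.22 to 1.72) and 3.03 on chromosome 4 (1.38 to 6.66). The gamma-H2Av peaks left out at gland IgG were thus, as a set, denser in stage 10 summits than the kept ones. The part of the control signal in the overlap was not tested.

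**Figure D3:**
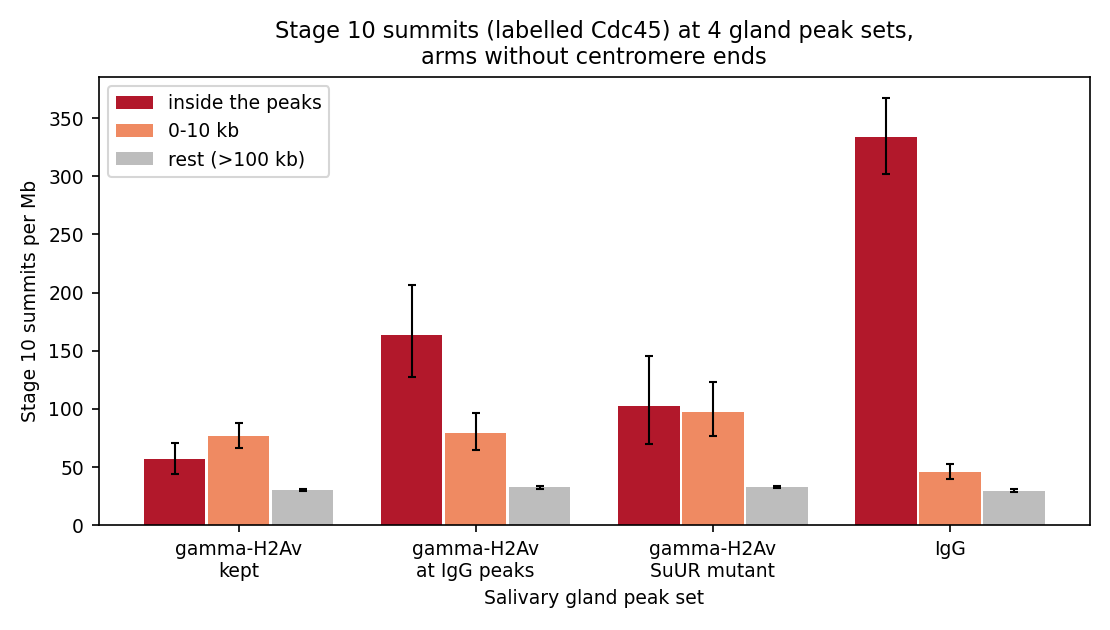
Stage 10 summits per Mb (library labelled Cdc45) away from the centromere ends, inside, within 10 kb of and more than 100 kb from 4 sets of salivary gland peaks; bars show densities with exact Poisson 95% intervals. Kept gamma-H2Av peaks are lowest inside, at 56.7, and gland IgG peaks highest, at 334, while the rest stands near 30 for all sets.

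By distance, kept gamma-H2Av peaks lay farthest of the 4 gland sets on the arms, but not on the Het scaffolds or chromosome 4. Away from the centromere ends the median distance between a kept gamma-H2Av summit and its nearest stage 10 summit was 41.1 kb. It was 31.2 kb for left-out gamma-H2Av summits, 13.5 kb for those of SuUR mutant glands, 20.1 kb for gland IgG summits and 62.8 kb for a grid of points each 10 kb. In the centromere ends it was 2.68 kb for gamma-H2Av, 1.42 kb for gland IgG and 9.51 kb for the grid. On the Het scaffolds kept gamma-H2Av summits lay at 3.76 kb and grid points at 3.51 kb. Those of SuUR mutant glands lay farther there, at 5.43 kb, and gland IgG summits nearer, at 1.64 kb. On chromosome 4 the kept gamma-H2Av summits were the nearest set, at 0.049 kb, against 2.91 kb for gland IgG and 5.22 kb for the SuUR mutant. The chromosome 4 medians rest on 6, 6 and 8 peaks.

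Damage sites came in runs. Joining kept peaks 50 kb or less apart gave 80 blocks on the arms, 23 touching the centromere ends and 57 outside them. A stage 10 summit lay anywhere within 43 of the 80 (53.8%), against 45.6% of 100-kb windows. Outside the centromere ends it was 27 of 57 blocks against 42.7% of windows, and in them 16 of 23 against 76.7%. Blocks vary in span and many are much shorter than the windows, so the shares are only roughly comparable. Window by window, 56 of 88 windows with a kept gamma-H2Av peak held a stage 10 summit outside the centromere ends (63.6%, 53.2 to 72.9), against 410 of 1003 windows with none (40.9%, 37.9 to 43.9).

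Block size split the overlap in opposite directions. The size classes were chosen after the values were seen. Outside the centromere ends, the 18 blocks of 5 or more peaks hold 307 of the damage sites and 982 kb of peak sequence. Inside those peaks lay 9 stage 10 summits, 9.16 per Mb (4.19 to 17.4), against 30.5 in the rest, a ratio of 0.30 (0.14 to 0.57). The 11 blocks of 2 to 4 peaks had 17 summits inside peaks, 116 per Mb (67.4 to 185) and a ratio of 3.79 (2.21 to 6.08). The 28 peaks that stood alone had 43, 255 per Mb (184 to 343) and a ratio of 8.35 (6.03 to 11.3), and 10 of these 28 held all 43. The kept damage sites of the long runs were thus poorer in summits than the rest of the arms. The excess over all kept peaks came from the short blocks and lone peaks. Kept peaks overlap no gland IgG peak by the rule that chose them. The 18 blocks also held 46 gamma-H2Av peaks left out by that rule, and the split by block size was not recomputed with them.

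The large blocks as a whole were not poor in summits, with 42.7 per Mb of span, and 63.2 per Mb (51.5 to 76.7) between their damage sites. Of the 111 summits within the 18 blocks, 9 lay in kept gamma-H2Av peaks, 85 in gland IgG peaks and 17 elsewhere. The IgG peaks in those blocks covered 154 kb, so their density was 552 summits per Mb, against 9.16 in the kept gamma-H2Av peaks beside them. The rule that left out gamma-H2Av peaks at IgG peaks bears on this contrast. Outside both kinds of peak the blocks had 11.6 per Mb (6.78 to 18.6), so away from gland IgG peaks their damage sites and the sequence between them both had lower densities than the rest. The other egg chamber lists were low in the same gamma-H2Av peaks too. The library labelled SUUR had a ratio to the rest of 0.45 at stage 10 (0.23 to 0.79) and 0.14 at stages 12-13 (0.03 to 0.42), and the stage 12-13 library labelled Cdc45 one of 0.18 (0.04 to 0.54). IgG had a ratio of 0.69 at stage 10 (0.02 to 3.89) and 0.19 at stages 12-13 (0.02 to 0.70). Low density inside the damage sites of long runs was therefore shared with the stage 12-13 control antibody, and what part of it concerns the precipitated protein was not tested.

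Lone peaks differed in their own values. Their median length was 5.14 kb, median fold over input 3.27 and median tag count 97.9 per kb, against 2.41 kb, 4.58 and 49.9 per kb in the large blocks. The fold is the authors' own value for each peak. In the lone peaks the stage 12-13 libraries were also dense, with a ratio to the rest of 7.51 for the one labelled Cdc45 (4.64 to 11.5), 3.65 for the one labelled SUUR (1.94 to 6.25) and 3.39 for IgG (1.24 to 7.41). The stage 10 library labelled SUUR had a ratio of 0.87 (0.24 to 2.23), and stage 10 IgG had no summit in their 169 kb (up to 21.8 per Mb). The part of input depth and of the control signal in the lone peaks was not tested.

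**Figure D4:**
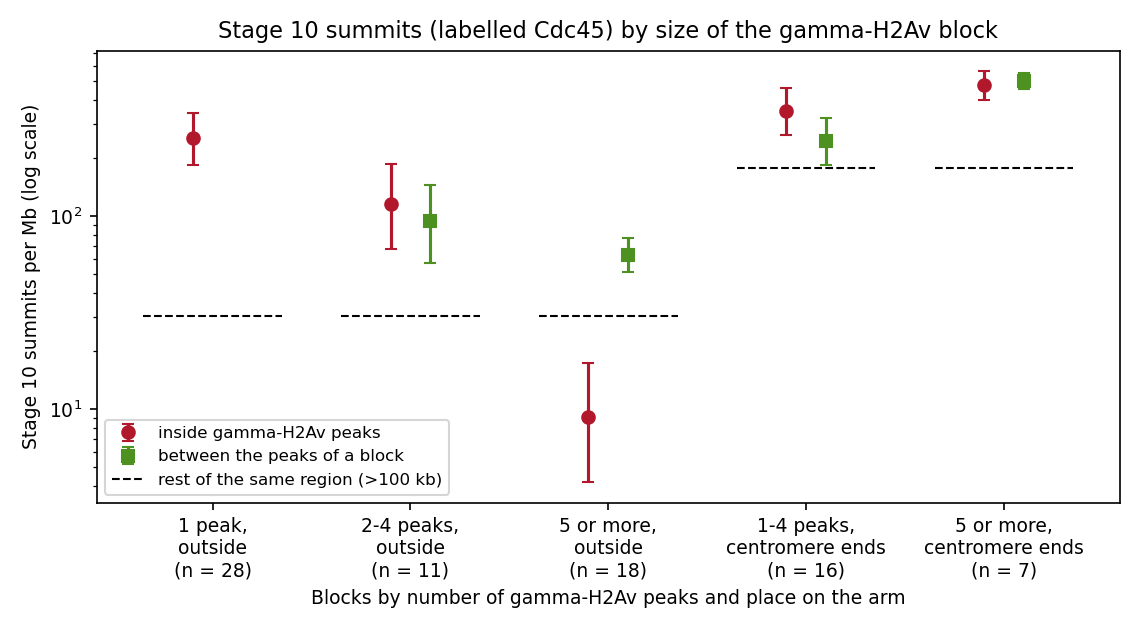
Stage 10 summits per Mb (library labelled Cdc45, log scale) inside gamma-H2Av peaks (circles), between the peaks of a block (squares) and in the rest of the same region (dashed lines), by number of peaks in the block; bars are exact Poisson 95% intervals and n is the number of blocks. Outside the centromere ends the inside density is 255 for lone peaks and 9.16 for blocks of 5 or more, on either side of the rest at 30.5.

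Named blocks, taken by the most gamma-H2Av peak sequence, showed this at single places in Release 5 (dm3) coordinates. The block with the most, at X:20547999-20850660 in a centromere end, had 18 kept peaks over 94.9 kb and 35 stage 10 summits, of which 2 were in a gamma-H2Av peak and 26 in a gland IgG peak. The block at X:11982426-12253563 had 24 peaks over 87.0 kb and 21 summits, none in a gamma-H2Av peak and 19 in IgG peaks. The block at 2L:16989049-17266224 had 47 peaks and 23 summits, all 23 in gland IgG peaks. Near it, 2L:17558227-17942683 had 40 peaks and 16 summits, 3 in gamma-H2Av and 9 in IgG peaks, 2L:15980635-16153318 had 38 peaks and 7 summits, and 2L:15371189-15475625 had 14 peaks and 9 summits. In these last 2 blocks each summit was in an IgG peak.

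The block at X:14256273-14404668 had 12 peaks and 2 summits, neither in a gamma-H2Av or a gland IgG peak. The block at X:2866369-3008261 had 13 peaks and 5 summits, 1 in a gamma-H2Av peak and 4 in IgG peaks, and stage 10 IgG itself had 15 summits there. Together the 8 named blocks outside the centromere ends held 207 damage sites over 587 kb. Of their 83 summits, 4 lay in gamma-H2Av peaks (6.81 per Mb, 1.86 to 17.4) and 71 in gland IgG peaks (846 per Mb).

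Pooled over the arms, damage sites in the centromere ends were about as dense in summits as their near surroundings, but the arms differed. On 3L there were 824 summits per Mb inside the peaks and 669 within 10 kb. The values were 149 and 293 on X, 266 and 436 on 2L, and 392 and 490 on 2R. On 3R neither zone held a summit. On 3L, the block at 24078915-24525176 had 40 kept peaks over 84.6 kb and 286 stage 10 summits, 64 of them in gamma-H2Av peaks and 68 in gland IgG peaks only, with no stage 10 IgG summit. All 7 blocks of 5 or more peaks in the centromere ends held a summit inside a gamma-H2Av peak. Pooled, their density was 474 per Mb inside peaks (397 to 562), against 499 between their peaks and 178 in the rest. Of the summits between, 127 lay in gland IgG peaks and 81 only in gamma-H2Av peaks left out at IgG. Outside kept gamma-H2Av and gland IgG peaks the density was 406 (361 to 456). Of the 134 summits inside the kept gamma-H2Av peaks of the 7 blocks, the blocks on 3L held 64, 26 and 26. The pooled inside value thus rests largely on 3L.

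The Bithorax complex comprises the homeotic genes Ubx, abd-A and Abd-B, which set the identity of posterior segments. It held gamma-H2Av peaks in the gland list and no summit in the stage 10 list. Its approximate window, 3R:12400001-12900000, held 19 kept gamma-H2Av peaks over 77.3 kb with folds between 2.76 and 5.51 (median 4.04). They form the named block at 3R:12531777-12713922. The window also held 6 gamma-H2Av peaks left out at IgG, and 6 gland IgG peaks. No stage 10 summit of the library labelled Cdc45 lay in the window, which allows up to 7.38 per Mb by the exact Poisson bound. The nearest ones were at 11766736 and 13173567, a gap of 1407 kb. Only 42.7% of 100-kb windows away from the centromere ends held such a summit, and the share for windows of this width was not computed. The library labelled SUUR had 16 summits in the window and stage 10 IgG none. Away from the centromere ends, the library labelled SUUR had 27.2 summits per Mb in the rest. Whether its count in the window exceeds that background was not tested. The Antennapedia complex, the homeotic genes of the head and anterior thorax, had no kept gamma-H2Av peak and 1 stage 10 summit. A nearly empty window thus also occurred without damage sites.

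The 4 follicle cell amplicons examined held stage 10 summits and no damage site. Away from the centromere ends, 42.7% of 100-kb windows held a stage 10 summit, and the share of 300-kb windows was not computed. DAFC-66D, with the chorion genes Cp15, Cp16, Cp18 and Cp19, had 51 stage 10 summits, and DAFC-7F, with Cp36 and Cp38, had 27. DAFC-34B had 14 and DAFC-22B 16. None of these 4 windows of 300 kb held a kept gamma-H2Av peak or one left out at IgG, but only 16.3% of 300-kb windows away from the centromere ends held a kept one. DAFC-66D had 170 summits per Mb, 7F 90.0, 34B 46.7 and 22B 53.3, against 34.4 over the arms without centromere ends. The values at 34B and 22B rest on 14 and 16 summits, and whether they exceed the arms was not tested. Stage 10 IgG had 14, 1, 4 and 0 summits in them in that order, so 66D was also a place of control signal. The library labelled SUUR, at a far lower depth, had 140 at 66D, 49 at 7F, 22 at 34B and 13 at 22B. The histone gene cluster, a tandem array of genes whose copies share reads, lies in the centromere end of 2L. It had 109 summits against 10 for IgG, and no kept gamma-H2Av peak. Its density was 545 summits per Mb, against 308 over the centromere ends of the arms.

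The 5 kept gamma-H2Av peaks named for the most summits, with ties taken by fold, lay on Het scaffolds or in centromere ends. The peak at 3LHet:9-17720, at a scaffold's edge, held 43 summits over 17.7 kb, at a fold of 4.42. On 3L, 24514325-24525176 held 24 (fold 9.52) and 23424554-23434306 held 17 (fold 4.36). The peak at X:21525119-21532010 held 11 (fold 8.36), and 2RHet:1749087-1754693 held 11 (fold 6.64). Stage 10 IgG had no summit in any of the 5, the library labelled SUUR had at most 1 in each, and that labelled Cdc45 at stages 12-13 had 26, 19, 8, 4 and 5, taking the peaks in the same order.

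Away from the centromere ends, the 17 damage sites with a summit were longer than the 348 without, with medians of 5.25 and 2.54 kb. Their median fold was 3.49, against 4.51 without a summit, and their tag count 91.6 per kb, against 51.1. Among them X:6919412-6924553 held 11 summits, as many as the last 2 named peaks, 2R:2207890-2217440 held 9 and X:10744-36825, near the tip of the X, held 8. These 3 were picked after their values were seen. The summits themselves did not stand out: the stage 10 peaks' own median fold over input was 3.70 inside gamma-H2Av peaks, within 10 kb and beyond.

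The 5 windows of 100 kb with the most summits lay in centromere ends. Those starting at 2R 0.9 Mb (123 summits) and 3L 23.5 Mb (116) held no kept gamma-H2Av peak. They did hold 3 and 4 gamma-H2Av peaks left out at IgG, with 4 and 15 gland IgG peaks. The window at 3L 23.3 Mb (122 summits) held 1 kept peak, that at 2R 0 Mb (121) held 2 and that at 3L 23.9 Mb (110) held 5. In the same order these windows held 0, 0 and 2 left-out peaks. Thus 3 of the 5 held a kept peak, against 35.9% of the 103 windows in the centromere ends. Among those 103, the 37 windows with a kept peak had a median of 43 summits and the 66 with none a median of 9. Stage 10 IgG had 10 summits in the window at 3L 23.9 Mb and at most 1 in each of the other 4.

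Pooled over the Het scaffolds, the relation ran the other way. The density was 447 summits per Mb inside gamma-H2Av peaks (393 to 507), 216 within 10 kb (200 to 233) and 797 in the rest (745 to 853), a ratio of 0.56 inside (0.48 to 0.65). When summits 1 kb or less apart counted once, that ratio was 1.10 (0.85 to 1.42), so its direction rests on clustered summits. Inside to 10-kb flank the ratio was 2.07 (1.78 to 2.40), and 2.95 (2.51 to 3.46) with gland IgG peak sequence left out. The rest covers only 11.5% of the scaffold sequence, since most of it lies within 100 kb of a damage site. Only 2RHet, 3LHet and 3RHet have any rest. Their inside ratios were 0.53 (0.42 to 0.67), 0.85 (0.66 to 1.08) and 0.32 (0.21 to 0.46), so the interval of 3LHet includes 1. The pooled inside density also counts 2LHet, XHet and YHet, with 48.5, 903 and 110 summits per Mb inside. On chromosome 4 the 6 peaks had 15 summits, 559 per Mb (313 to 922), against 163 in the rest (139 to 189).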

How the data were processed

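The authors mapped reads with BWA, and the genome was dm3 (Release 5), per the submitters' processing notes. Per the file headers, gland peaks were called in each library with MACS 1.4.2 (p-value limit 1e-05, effective genome 2.7e+09, larger than the fly's). In those lists the authors deposited a tag count per peak, a score of 10 × −log10 p, a fold over input, and the FDR as a percent. Per the file headers, egg chamber peaks were called in each library with MACS 2.0.10.20130419 (limit 1e-03, effective genome 1.2e+08). There the authors deposited the pileup signal, a −log10 p and a fold over input. Their q-values were not calculated, per the file headers, and were not used. The different callers and limits make list lengths incomparable between tissues.

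Samples were grouped by their labels, 1 library per group. A peak was left out where it overlapped a peak of the same tissue's IgG list by 1 bp or more, or lay on U, Uextra or mitochondrial sequence. OrR IgG served for the SuUR mutant, which has no IgG list here. The length of a chromosome was set to the highest peak end in any list, so densities include sequence where reads may not map. Stage 10 IgG peaks and the kept set of each list were counted by summit. Zones were measured from the nearest peak edge. The 10 blocks with the most gamma-H2Av sequence, the 5 windows with the most summits, the 5 peaks with the most summits and a list of loci are named. Locus windows were written from general knowledge and are approximate. No Release 5 genome or annotation was used, so peaks were not placed in genes and no sequence is shown. Members, loci and lists were chosen with earlier results of these data known. Python 3.11.15, numpy 2.4.6, pandas 2.3.3 and scipy 1.17.1 were used, and the counting was tested on simulated data. Alternatives are given with the closing section.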

Additional observations from a re-analysis of the deposited data

How the results depend on the processing

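Of 54 recomputed values, 18 stayed within the counting interval of the reported one, 35 moved out of it and 1 changed direction. Causes were not tested. With no peak left out for IgG, 19.9% of gamma-H2Av peaks on the arms and 37.3% on the Het scaffolds held a stage 10 summit, the ratio to the rest of the arms was 7.18 inside and 6.19 in the near flank, and 9.13% of arm summits lay in a gamma-H2Av peak. With as many stage 10 as gamma-H2Av peaks, these were 1.80%, 4.04%, 2.70, 3.89 and 2.88%, and the Het ratio was 0.46. With an IgG peak within 1 kb enough to leave a peak out, the arm ratios were 3.40 inside and 5.07 in the flank, the Het ratio 0.66 and the share of arm summits 2.96%. With the upper 50% of each list by p, that last share was 2.83%. With a near flank of 5 kb, the flank ratio was 4.93. Without the centromere ends, 4.66% of gamma-H2Av peaks held a summit, the ratios were 1.86 inside and 2.52 in the flank, and 1.97% of summits lay in a peak. Chosen after seeing the data, counting summits 1 kb or less apart once gave 4.40 inside on the arms and 1.10 on the Het scaffolds, where the direction reversed. Also chosen then, leaving out an arm with the centromere ends gave inside ratios of 2.56 without 2L, 1.53 without 2R, 2.09 without 3L, 1.85 without 3R and 1.39 without X. The flank ratios were 2.48, 2.18, 3.09, 2.47 and 2.42 in the same order. With gland IgG peak sequence left out of flank and rest, also chosen then, the flank ratio was 4.40, and with the centromere ends left out too the ratios were 1.97 inside and 1.54 in the flank. No pooled arm ratio in these alternatives fell below 1, although the interval without X includes 1. No paired analysis was possible because each group is 1 library, whose number is given in accession order only. Depth also limits the comparators: stage 10 IgG had 0.47 of the tags of the library labelled Cdc45, and the library labelled SUUR 0.04.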
